A study of Mus musculus with 18 samples.

Results

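The uroplakin genes Upk1a, Upk1b, Upk2, Upk3a and Upk3b were followed by name through every deposited table of a mouse bladder atlas. They are 5 of the 26337 genes that all tables list, and all 5 were measured in each table. Upk3bl, the paralog next to Upk3b, is given for comparison.

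The atlas holds 18 samples in 11 groups from C57BL/6 bladders, with no further allele or treatment named. Whole bladder was dissociated to single cells for 5 libraries: pools of 3 males gave a 22-month and a 3-month library, and pools of 2 females with 2 males gave a pair of 12-month libraries and a 24-month library. The nuclei library was made at 12 months from a pool of the same make-up (2 females, 2 males). At 14 months, 3 females gave a library of the detrusor (muscle) layer alone, and a pool of 2 females with 2 males gave a library of bladder enriched for detrusor. Visium sections, which read RNA in spots of a frozen section, came from 22-month and 14-month bladders, 2 sections each, with 4 males named for each section. Bulk libraries of intact tissue and of dissociated bladder, 3 each, came from 12-month animals, with 3 females named for each library. The labels name pools and not separate animals, so p-values measure spread between these samples, which may be technical. The edgeR test shares that spread across genes, so a p-value does not rest on the spread of its gene alone.

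Uroplakins are membrane proteins of the urothelium, the epithelium that lines the bladder. The tetraspanins Upk1a and Upk1b each pair with a partner that spans the membrane singly: Upk1a with Upk2, and Upk1b with Upk3a or Upk3b. The pairs assemble into the rigid plaques on the luminal face of umbrella cells, the most superficial layer, which help make the bladder surface impermeable. Upk3b is also known as a marker of mesothelium, the thin serosal layer that covers the outside of abdominal organs.

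RefSeq (GRCm38.p6) places the genes on 5 chromosomes. Upk1a lies at chr7:30603092-30612734 on the minus strand, Upk1b at chr16:38773182-38800203, Upk2 at chr9:44452715-44454767, Upk3a at chr15:85017141-85022560 on the plus strand and Upk3b at chr5:136038496-136044993 on the plus strand. Upk3bl starts 12265 bases beyond the end of Upk3b. Upk3a shares 1793 bases with the lncRNA Gm52194, and the sources used here do not say whether counting used strand, so reads from the shared part cannot be assigned to one of them. RefSeq promoters were matched for 3 of the 5 genes, and not for Upk1b and Upk2. The 250 bases before the start of those 3 genes are shown to set Upk1a and Upk3a beside Upk3b. In the results that follow, Upk1a and Upk3a were lower in cells with mesothelial than with urothelial markers, and Upk3b was higher. Capitals mark matches to 7 motifs searched on both strands. The GATA motif was written AGATAA and the Grhl motif AACCNGTT. The Foxa motif was TGTTTNC and the nuclear receptor half-site AGGTCA. The GC box was GGGCGG, the ETS motif AGGAAG and the TATA box TATAAA.
Upk1a: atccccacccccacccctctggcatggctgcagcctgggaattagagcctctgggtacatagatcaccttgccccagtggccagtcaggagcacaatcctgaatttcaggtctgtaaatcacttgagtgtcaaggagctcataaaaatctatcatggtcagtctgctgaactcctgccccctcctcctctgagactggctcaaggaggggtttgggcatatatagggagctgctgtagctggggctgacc
Upk3a: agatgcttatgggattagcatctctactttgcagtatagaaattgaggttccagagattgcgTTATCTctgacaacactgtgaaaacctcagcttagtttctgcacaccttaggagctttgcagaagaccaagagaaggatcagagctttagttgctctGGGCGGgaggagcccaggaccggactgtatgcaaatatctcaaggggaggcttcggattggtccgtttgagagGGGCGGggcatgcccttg
Upk3b: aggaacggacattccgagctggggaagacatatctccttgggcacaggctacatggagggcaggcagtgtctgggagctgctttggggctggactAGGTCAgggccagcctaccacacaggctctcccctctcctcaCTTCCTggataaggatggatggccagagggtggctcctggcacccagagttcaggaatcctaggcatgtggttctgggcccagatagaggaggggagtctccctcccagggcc
The windows are chr7:30612735-30612984 (minus strand), chr15:85016891-85017140 and chr5:136038246-136038495 (plus strand). The Upk1a window held none of the 7 motifs. The Upk3a window held a GATA match (TTATCT on this strand, first letter at base -188 from the start) and GC boxes at bases -91 and -18. The Upk3b window held the half-site at base -155 and an ETS match (CTTCCT on this strand) at base -113. Among 27025 RefSeq promoters cut to the same 250 bases, 10.3% held the GATA letters, 32.9% the GC box, 13.8% the half-site and 29.2% the ETS letters. GC content was 54.4% for Upk1a, 49.6% for Upk3a and 60.8% for Upk3b, against a median of 52% over those promoters.

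Barcodes were assigned to 7 cell classes by marker lists that hold no uroplakin, so a gated class names the markers it carries. Whole-bladder libraries gave 956 to 9080 kept barcodes, of which 735 to 2143 were urothelial-gated. The nuclei library gave 749 urothelial-gated nuclei and the detrusor-enriched library 426 urothelial-gated cells. Leiden clusters gave more urothelial barcodes in both. In nuclei there were 1344, in 3 clusters with 10 to 12 of the 12 urothelial markers raised, so the gate left out urothelial nuclei. In the detrusor-enriched library there were 1564, of which 1154 formed 1 cluster with a median of 582.5 UMIs and 4 of 12 markers raised. The detrusor-only library gave 0 urothelial-gated cells of 5669. Urothelial-gated cells had a median of 7 to 10 of the 12 urothelial markers on in whole bladder, 11 in the detrusor-enriched library and 5 in nuclei. Depth differed: the median was 4190.5 UMIs (counts of captured RNA molecules) per urothelial-gated cell at 22 months and 3254.5 at 3 months for the male pools, against 13146 to 18451 for pools of mixed sex. The male tables also have barcodes of 14 bases and list 27775 genes, against 16 bases and 27998 genes for the mixed tables, so sex mix, depth and table version cannot be told apart. Pairs of single-cell or nuclei libraries shared at most 64 barcodes, which is 1.00% of the smaller one.

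Upk3a and Upk1a were the most abundant uroplakins in urothelial-gated cells, Upk1b and Upk2 were lower, and Upk3b was the lowest in all 5 whole-bladder libraries. Levels here are UMIs per 10,000 UMIs of the class, a count of molecules with no gene-length term. They are given in the order 22-month male, 3-month male, first 12-month, second 12-month and 24-month library. Upk3a, the partner of Upk1b, was at 32.7, 29.2, 29.99, 28.6 and 23.2. Upk1a was at 32.8, 42.2, 18.4, 19.8 and 14.0, so it was above Upk3a in the male libraries and below it in the mixed ones.
The male and mixed libraries did not overlap in Upk1a, but the share of all genes separated in this way was not counted. Upk1b was at 7.99, 7.60, 6.34, 7.19 and 4.94, close together apart from the 24-month library. Upk2, the partner of Upk1a, was at 4.39, 2.57, 5.76, 6.18 and 4.37, and fell below Upk1b in each. Upk3b was at 1.47, 1.43, 1.21, 1.56 and 1.05.
In the nuclei library the levels were 12.1 for Upk3a, 6.90 for Upk1a, 6.81 for Upk1b, 2.60 for Upk2 and 1.76 for Upk3b. In the detrusor-enriched library Upk3a (21.2) and Upk1a (15.7) again stood above Upk1b (5.54), Upk2 (3.30) and Upk3b (1.25). The order of Upk1b, Upk2 and Upk3b thus held in all 7 libraries with urothelial-gated barcodes. The places of Upk1a and Upk3a changed between libraries.

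**Figure D1:**
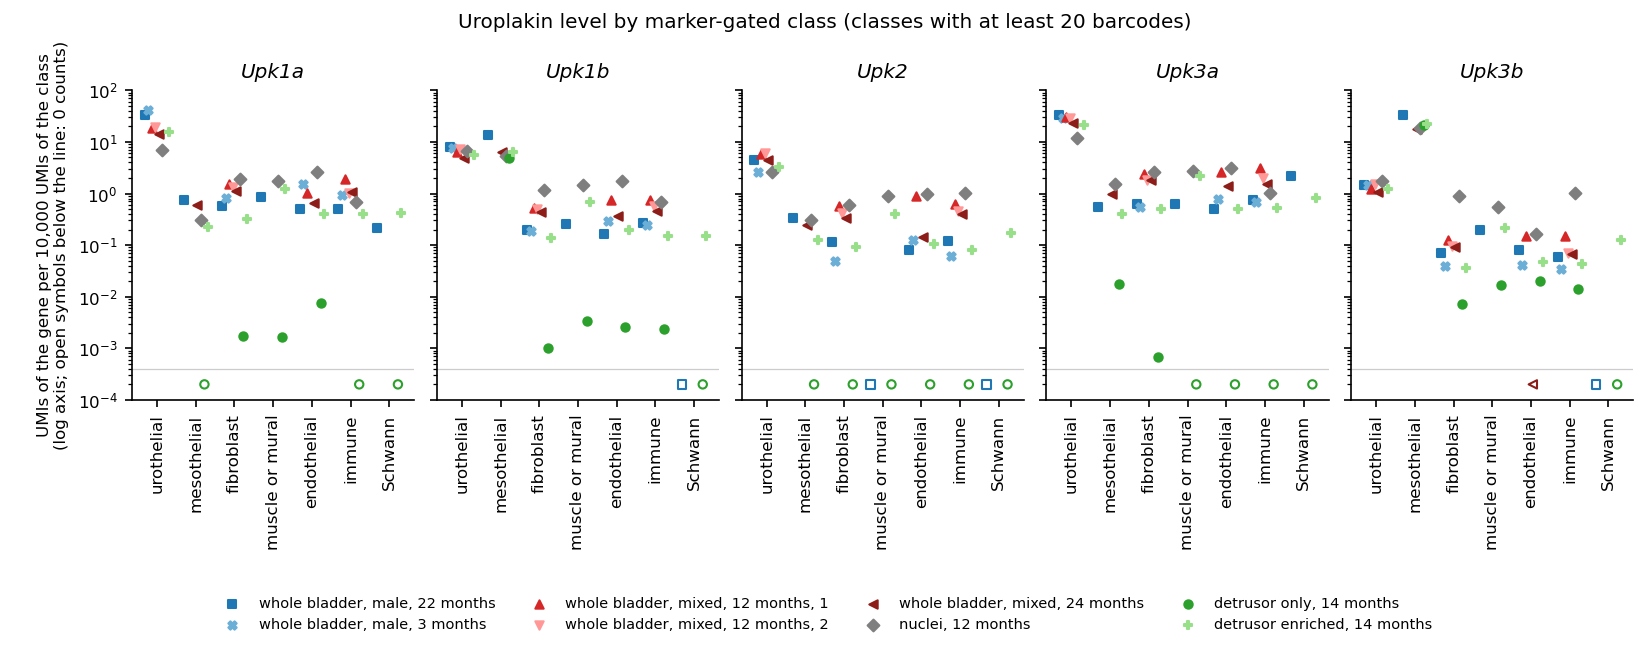
Level of each uroplakin by marker-gated class (horizontal axis) in each cell or nuclei library, as UMIs per 10,000 UMIs of the class. The axis is logarithmic, each symbol is a library, open symbols below the line mark 0 counts, and only classes with 20 or more barcodes are drawn. Upk3a in urothelial-gated cells lies between 23.2 and 32.7 in the whole-bladder libraries, and Upk3b in mesothelial-gated cells lies between 17.6 and 32.5.

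The share of urothelial-gated cells with at least 1 UMI depended on depth. Upk1a was detected in 93.9% to 99.5% of cells over the whole-bladder libraries and Upk3a in 74.3% to 99.3%. Upk3b was detected in 26.9% to 83.8%. After each cell was thinned to 1000 UMIs, the shares were 69.9% to 90.2% for Upk1a, 63.2% to 79.9% for Upk3a, 33.0% to 51.8% for Upk1b, 18.1% to 39.3% for Upk2 and 9.02% to 13.5% for Upk3b. Thinned Upk3a and Upk1a therefore stayed the most widely detected, and the range for Upk3b lay below those of the other 4.

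Other classes held low counts of the same genes. In fibroblast-gated cells of the whole-bladder libraries, Upk3a was at 0.552 to 2.39 UMIs per 10,000 and was detected in 8.07% to 72.0% of cells, or 4.66% to 23.1% after thinning, at median depths of 1657 to 5979 UMIs. This level was 1.89% to 7.98% of the urothelial level of the same library. Immune-gated cells held Upk3a at 0.686 to 3.11, or 2.34% to 10.4% of the urothelial level. The ratio of Upk3a to Upk1a counts in fibroblast-gated cells was 1.09, 0.669, 1.53, 1.37 and 1.66, close to 0.997, 0.693, 1.63, 1.45 and 1.66 in the urothelial-gated cells of the same libraries, in the order above. In immune-gated cells it was 1.51, 0.75, 1.61, 1.88 and 1.42, which is higher than the urothelial ratio in both male libraries and the second 12-month one. In the muscle-gated and endothelial-gated classes of the male and first 12-month libraries, with 13 to 37 counts of each gene, it ranged from 0.514 to 2.57. In the detrusor-only library, which had no urothelial-gated cell, 3244 fibroblast-gated cells held 5 counts of Upk1a, 3 of Upk1b, 0 of Upk2 and 2 of Upk3a. A count of 0 allows up to 0.0925% of those cells to carry a UMI of Upk2. Shares at the level of fibroblast-gated cells are called background here, and the source of these counts was not tested. In the nuclei library other classes came closer to the urothelial level of Upk3a. Fibroblast-gated nuclei were at 21.2% of the level in urothelial-gated nuclei, and endothelial-gated nuclei, with 19 counts, at 25.2%. Muscle-gated nuclei (1741) held Upk3a at 2.76, or 22.8% of that level. Muscle-gated barcodes of the detrusor-enriched library (850, at a median of 701.5 UMIs) held it at 2.15, or 10.1% of the urothelial level, against 2.33% in its fibroblast-gated cells.

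How many urothelial-gated cells carried the 4 genes other than Upk3b together depended on depth. A cell carried UMIs of all 4 of Upk1a, Upk1b, Upk2 and Upk3a in 53.7% and 27.8% of cells of the 22-month and 3-month male libraries, in 91.1% and 94.4% of the 12-month ones and in 85.2% of the 24-month one. At 1000 UMIs a cell these shares were 15.1%, 7.30%, 13.0%, 15.5% and 8.97%, so male and mixed libraries then overlapped. As a description over cells that share library and depth, the median Pearson correlation over 5 libraries was highest for Upk1a with Upk3a (0.64, and 0.32 thinned) and for Upk2 with Upk3a (0.63, and 0.27 thinned). Pairs with Upk3b had medians of 0.26 to 0.33, and 0.045 to 0.089 thinned, where most cells hold no Upk3b count.

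Along an axis of basal gene level, all 5 uroplakins were higher in the urothelial-gated cells with the least basal RNA. Basal cells rest on the basement membrane and umbrella cells face the urine. Cells of each library were split in tertiles by their summed level of 9 basal genes (Krt5, Krt14, Krt15, Trp63 and 5 adhesion genes), and 127 to 439 cells per library lay within 10% of a boundary, so the tertiles are ranges and not cell types. Over the whole-bladder libraries Krt5 was detected in 56.3% to 93.1% of least basal and 79.4% to 98.8% of most basal cells. Trp63 was detected in 40.7% to 75.8% and 47.3% to 75.5%, and the umbrella-cell keratin Krt20 in 6.07% to 68.2% and 2.53% to 33.9%. Upk3a was at 44.6, 39.8, 45.2, 39.4 and 35.3 UMIs per 10,000 in the least basal tertile and at 21.1, 20.3, 17.7, 16.5 and 14.6 in the most basal one. The tertiles did not overlap across libraries. Here and for the genes below, the share of all genes separated in this way was not counted. The edgeR quasi-likelihood test with library as a block gave a log2 difference of 1.20 (SE 0.06, adjusted p = 6.0e-11, 5 libraries).
Upk2 was at 6.04, 3.27, 9.31, 8.51 and 7.05 against 3.27, 2.07, 2.89, 3.52 and 2.44, a log2 difference of 1.26 (SE 0.17, adjusted p = 0.0051). It was higher in the least basal tertile of each library, but the 3-month male library was low in both tertiles, so the ranges over libraries overlapped. Upk1b was at 8.92, 9.95, 9.57, 9.85 and 7.39 against 6.81, 6.26, 3.95, 4.36 and 3.33, a log2 difference of 0.96 (SE 0.16, adjusted p = 0.0098), with no overlap.
Upk1a was at 39.4, 49.5, 25.0, 25.9 and 18.4 against 26.2, 35.5, 12.5, 13.3 and 10.3, a log2 difference of 0.79 (SE 0.08, adjusted p = 1.3e-05), with ranges that overlapped because the male libraries were higher throughout. Upk3b was at 1.82, 1.52, 1.53, 1.87 and 1.32 against 1.04, 1.19, 0.913, 1.23 and 0.808, a log2 difference of 0.67 (SE 0.07, adjusted p = 1.2e-06), with no overlap. The level of each gene was higher in the least basal tertile in 5 of 5 libraries. It was also higher in the nuclei and detrusor-enriched libraries, which did not enter the fit. The level in the middle tertile lay between the others except for Upk3b in the 3-month male library (1.52, 1.60 and 1.19) and Upk1a in the nuclei library (8.09, 5.88 and 6.68). Shares of cells with a UMI went the other way in the detrusor-enriched library, except for Upk3b (69.0% least and 65.5% most basal). They were 83.8% and 94.4% for Upk1a, 82.4% and 90.8% for Upk1b, 73.9% and 76.1% for Upk2, and 82.4% and 85.9% for Upk3a.

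The test called 22.5% of 11814 genes, with 11% higher and 11.5% lower in the least basal tertile, and all 5 uroplakins were among the higher ones. Their median log2 difference was 0.96, against 0.02 over all genes tested. Upk3bl went the other way, with a log2 difference of -2.0 (SE 0.19, adjusted p = 3.6e-05). Of 8 genes for plaque transport and the umbrella-cell keratin, 5 were called higher, none lower and 3 were not called (median 0.50): the umbrella-cell keratin Krt20 rose by 1.02, the sorting nexin Snx31 by 0.99, the motor Myo5b by 0.54 and the small GTPase Rab27b by 0.51. Of 9 transcription factors known from urothelium, 2 were called higher and 4 lower (median -0.07), with Grhl3 at 0.63, Klf5 at -0.56, Elf3 at -0.41 and Trp63, itself a basal gene of the split, at -0.58. Among markers of other cells, 4 of 12 fibroblast markers and 3 of 9 tested muscle or mural markers were called higher in the least basal tertile, and their part in the result was not tested. The summed fibroblast list ranged from 0.911 to 34.3 in the most basal and from 0.925 to 48.3 in the least basal tertile. The count of called genes was 1385 with DESeq2 and 1211, 1707 and 1236 without the first 12-month, the second 12-month and the 24-month library, against 2661 with all libraries; the 5 uroplakins were called in each.

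**Figure D2:**
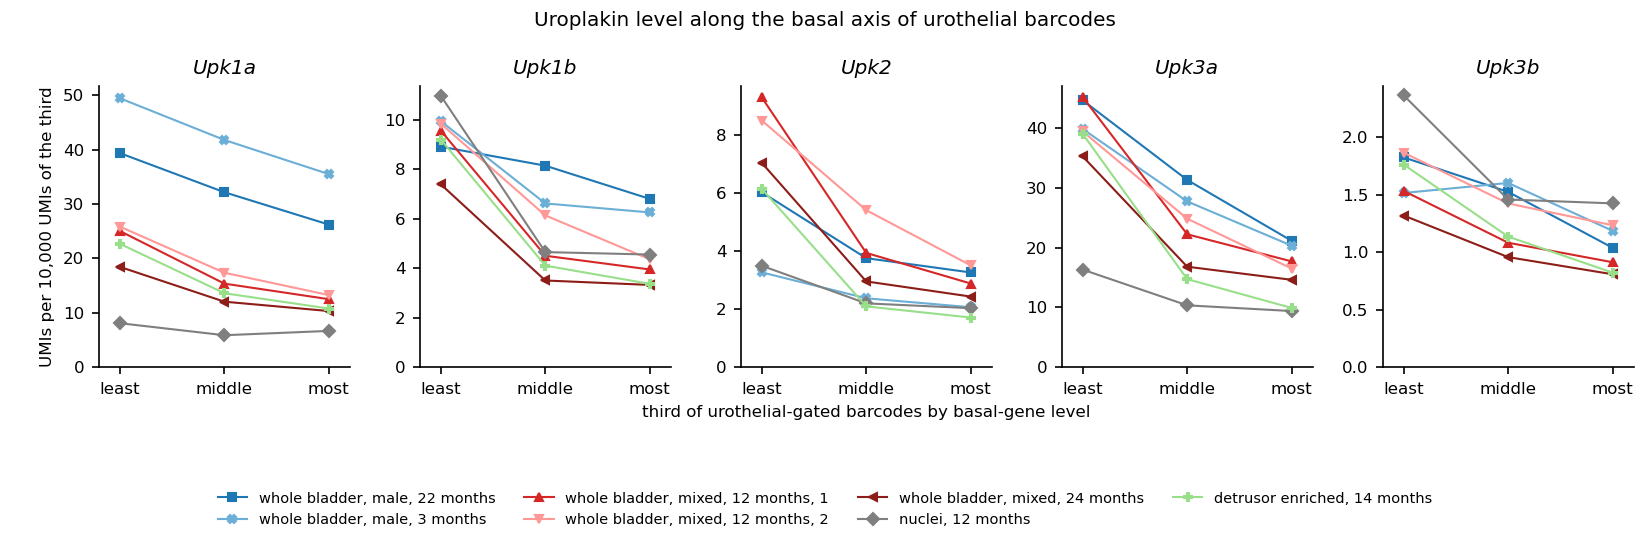
Level of each uroplakin, as UMIs per 10,000 UMIs, in the tertiles of urothelial-gated cells by basal gene level (horizontal axis, least to most basal). Each line is a library. Upk3a declines in every library, for example from 45.2 to 17.7 in the first 12-month library.

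Upk3b and Upk1b, but not Upk1a, Upk2 or Upk3a, were abundant in mesothelial-gated cells. These cells were few: 63, 16, 6, 4 and 22 in the whole-bladder libraries, 24 nuclei, 122 in the detrusor-only library and 48 in the detrusor-enriched one. Leiden clusters gave 72, 28, 0, 0 and 28 mesothelial barcodes, then 94, 129 and 82, in the same order. The gated nuclei may thus be a part of the mesothelial nuclei. Values below are for gated cells. Upk3b was at 32.5, 23.4, 14.8, 18.5 and 17.6 UMIs per 10,000 in the whole-bladder libraries, 18.4 in nuclei, 21.4 in the detrusor-only and 22.5 in the detrusor-enriched library. Each of these values was above every urothelial value, which ended at 1.76, but the share of all genes separated in this way was not counted. Upk1b was at 13.7, 11.5, 6.68, 9.48 and 6.35, then 5.43, 4.98 and 6.50 in the same order, a range that overlaps its urothelial levels of 4.94 to 7.99.

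The detrusor-only library showed the pair without urothelial cells nearby. All 122 mesothelial-gated cells carried Upk3b and 117 carried both Upk3b and Upk1b (95.9%, exact 95% binomial interval 90.7 to 98.7). In the other libraries both genes were found in 53 of 63 mesothelial-gated cells (22-month male), 8 of 16 (3-month male), 6 of 6 and 4 of 4 (12-month), 21 of 22 (24-month) and 46 of 48 (detrusor-enriched), and in 9 of 24 nuclei. The lowest shares were those of the 3-month male library, where 10 of 16 cells carried Upk3b, and of nuclei, where 17 of 24 did, at median depths of 1975.5 and 1189 UMIs. All 63 mesothelial-gated cells of the 22-month male library carried Upk3b at a median of 2004 UMIs, near that of the 3-month one. Upk3a was found in 3 of the 122 cells, and Upk1a and Upk2 in 0, which allows a share of up to 2.46%. In the libraries with urothelial cells, any of these 3 genes was found in 19 of 63 (22-month male), 5 of 16 (3-month male), 6 of 6 and 4 of 4 (12-month), 14 of 22 (24-month) and 35 of 48 (detrusor-enriched) mesothelial-gated cells and in 5 of 24 nuclei. In the detrusor-enriched library Upk3a was in 56.3% of mesothelial-gated and 39.2% of fibroblast-gated cells, at 0.401 and 0.493 UMIs per 10,000 and median depths of 13847.5 and 11169 UMIs. Over the whole detrusor-only library, 93.2% of Upk3b UMIs and 92.7% of Upk1b UMIs came from its 122 mesothelial-gated cells, 2.15% of barcodes. Elsewhere the mesothelial share of Upk3b UMIs was highest in the detrusor-enriched library (50.6%, with 40.6% from urothelial-gated cells) and the 22-month male library (32.4% and 51.0%). It was 9.08% in the 3-month male, 2.71% and 3.59% in the 12-month, 10.3% in the 24-month and 8.66% in the nuclei library, where urothelial-gated barcodes gave 78.3%, 92.9%, 95.2%, 83.7% and 47.7%.
Among non-urothelial barcodes of the detrusor-only library, Upk3b was detected in 0.668% of 4343 with no mesothelial marker, 1.01% of 1087 with 1, 4.21% of 95 with 2, 12.5% of 8 with 3 and 100% of 136 with 4 or more (interval 97.3 to 100). Upk1b went from 0.115% to 95.6% over the same classes, and Upk3a from 0 to 2.94%. The markers were Msln, Wt1, Lrrn4, Gpm6a, Muc16, Bnc1, Rspo1, Nkain4 and Cldn15. In the 22-month male library Upk3b rose from 1.44% with no marker to 100% of 73 barcodes with 4 or more, and Upk1b from 5.50% to 83.6%. Upk3a stayed at 14.1% and 13.7% there. With 4 or more markers Upk3b was in 15 of 20 barcodes (75%) of the 3-month male and 33 of 40 (82.5%) of the nuclei library, in 29 of 30 of the 24-month one, and in all of 12, 5 and 54 barcodes of the 12-month and detrusor-enriched ones.
Among urothelial-gated cells of the 7 libraries that held them, Nkain4 reached the highest share of the 9 mesothelial markers, with 0 to 10.96% of Upk3b-positive and 0.565% to 9.20% of Upk3b-negative cells. The other 8 markers were each in at most 2.303% of either. Msln was in 1.97% of 456 positive and 0.687% of 728 negative cells in the 22-month male library, at median depths of 4881 and 3796 UMIs. It was higher in positive cells in 5 of the 7 libraries, and lower in the 3-month male (0.251% and 0.646%) and detrusor-enriched (1.32% and 1.64%) ones.

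**Figure D3:**
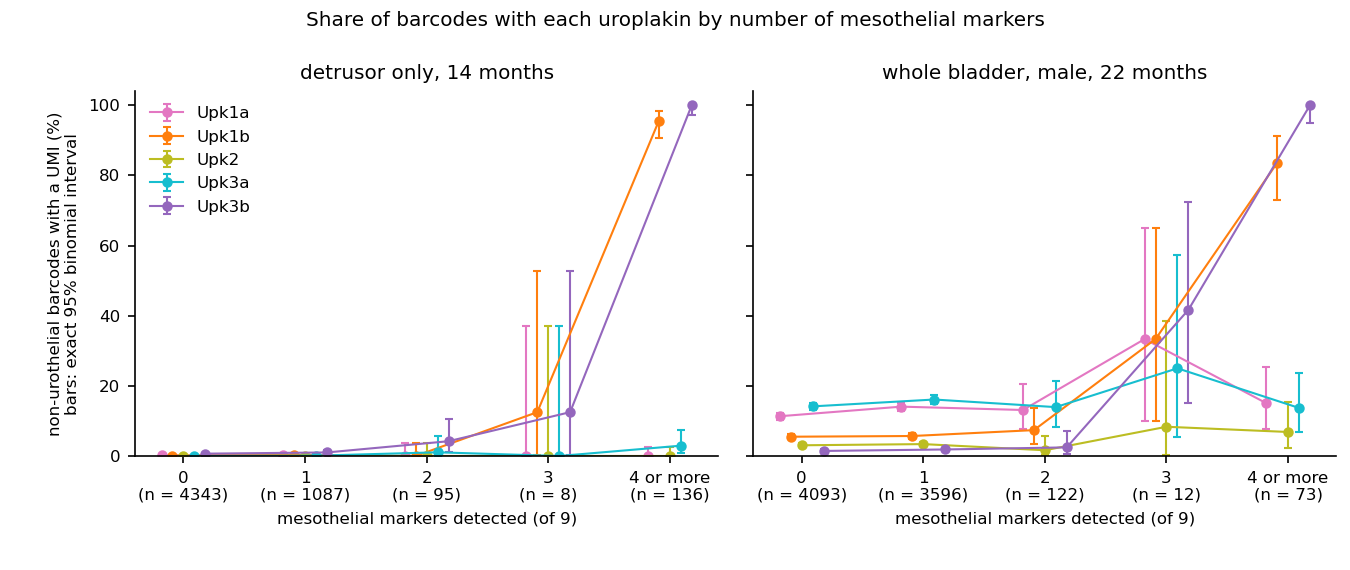
Share of non-urothelial barcodes with a UMI of each uroplakin (vertical axis, percent, with exact 95% binomial intervals) by the number of 9 mesothelial markers detected, in the detrusor-only and the 22-month male whole-bladder library. Upk3b reaches 100% and Upk1b 95.6% with 4 or more markers in the detrusor-only library, where Upk3a is at 2.94%.

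Upk3b was the only uroplakin that the main test called between mesothelial-gated and fibroblast-gated cells. Upk1b also had a large difference, which did not pass, and the difference between these 2 genes was not tested. Sums of counts were compared between mesothelial-gated and fibroblast-gated cells in the 4 libraries with 20 or more of each. Upk3b was at 33.3, 18.7, 22.8 and 24.3 UMIs per 10,000 of the genes compared in mesothelial sums (22-month male, 24-month, detrusor-only, detrusor-enriched) and at 0.0709, 0.0969, 0.0076 and 0.0383 in fibroblast sums. It was higher in 4 of 4 libraries, by 9.0 on the log2 scale (SE 0.99, edgeR adjusted p = 0.0097), although without the detrusor-enriched library the difference of 8.98 had an adjusted p of 0.0653. Upk1b was at 14.0, 6.75, 5.29 and 7.01 against 0.202, 0.459, 0.0011 and 0.148. The groups did not overlap, though the share of all genes separated in this way was not counted. The log2 difference of 5.91 (SE 1.63, 95% interval 0.92 to 10.9) did not pass (edgeR adjusted p = 0.0998). The fibroblast value was lowest in the detrusor-only library: without the detrusor-only library the Upk1b difference was 5.06 (adjusted p = 0.0236), and DESeq2 gave 6.10 (adjusted p = 7.2e-06) and classes from Leiden clusters 5.82 (adjusted p = 0.0222).
Upk1a (-0.64, adjusted p = 0.129), Upk2 (0.19, adjusted p = 0.83) and Upk3a (-0.47, adjusted p = 0.609) were not called by edgeR. Upk3a was at 0.555, 1.04, 0.0186 and 0.432 in mesothelial and at 0.652, 1.93, 0.0007 and 0.530 in fibroblast sums. Without the detrusor-only library it was lower in mesothelial sums (-0.67, adjusted p = 0.0445), and with DESeq2 (0.11) and Leiden clusters (0.078) its direction turned. The test called 26.5% of 11926 genes (11.5% higher, 15.1% lower; 43.2% of the called genes were higher, against 60.4% with library size alone), and 1 of the 5 uroplakins; their median was 0.19, against -0.11 over all genes (0.15 with library size alone). Of 7 plaque transport genes tested, Myo5b was called higher (5.44) and Sytl2, a Rab27 effector, lower (-2.59); of 8 transcription factors tested, Klf5 was called higher (0.94) and Pparg lower (-4.94). Mesothelial sums still held fibroblast markers, at 194 to 391 against 302 to 635 UMIs per 10,000 in fibroblast sums with 0 of 12 at 0, and their part in these results was not tested.

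Against urothelial-gated cells, in the 3 libraries with 20 or more of both, mesothelial-gated cells had less Upk1a, Upk2 and Upk3a and more Upk3b. These sums share the mesothelial cells of the comparison above. Upk3b was at 33.3, 18.7 and 24.3 in mesothelial and 1.5, 1.13 and 1.39 in urothelial sums (22-month male, 24-month, detrusor-enriched), a log2 difference of 3.67 (SE 0.28, edgeR adjusted p = 5.7e-37). Upk3a was at 0.555, 1.04 and 0.432 against 33.3, 24.9 and 23.6, a difference of -5.93 (SE 0.32, adjusted p = 1.1e-71). Upk1a fell by 5.98 (SE 0.33) and Upk2 by 4.82 (SE 0.37). None of these genes overlapped between the classes, but the share of all genes separated in this way was not counted. The p-values of this fit rest on spread pooled across genes. They do not measure how each gene varied over the 3 libraries.
Upk1b was at 14.0, 6.75 and 7.01 in mesothelial and 8.14, 5.31 and 6.18 in urothelial sums. Its log2 difference was -0.11 (SE 0.26, 95% interval -0.62 to 0.41, edgeR adjusted p = 0.80), and 0.44 (adjusted p = 0.155) when sums were scaled by library size alone, 0.075 without the 24-month library and 0.045 without the detrusor-enriched library. The 2 scalings move the median over all genes from -0.20 to 0.30. The test called 37.5% of 11425 genes (16.7% higher, 20.8% lower; 44.5% of the called genes were higher, against 66.6% with library size alone); the median of the 5 uroplakins was -4.82. Upk3bl had 0 counts in all 3 mesothelial sums and 0.168 to 0.668 UMIs per 10,000 in urothelial ones. Of the plaque transport list 1 of 8 was called higher and 6 lower, among them the myelin and lymphocyte protein Mal (-6.45) and Sytl2 (-6.32). All 9 transcription factors were called lower, with Pparg at -6.51 and Foxa1 at -5.87. Among these factors Elf3, Ehf and Gata3 are urothelial gate markers, so the gate itself selects for their difference. Krt20 had 0 counts in the mesothelial sums. The 12 urothelial markers summed to 2.295 to 7.43 UMIs per 10,000 in mesothelial and 98.6 to 138 in urothelial sums, and the fibroblast list to 194 to 391 and 2.81 to 41.6, and their part was not tested. Without the detrusor-enriched library 2590 genes were called, against 4285.

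In the bulk libraries all 5 uroplakins were lower in dissociated than in intact bladder. Bulk values are CPM, reads scaled to the library total, which depend on gene length and are not compared between genes. Upk2 was at 519, 459 and 512 CPM in intact and 142, 98.8 and 153 CPM in dissociated libraries (replicates 1 to 3), the largest difference of the 5: it fell by 1.81 on the log2 scale (SE 0.17, edgeR adjusted p = 0.00011). Upk1b was at 1153, 1040 and 1088 CPM in intact and 415, 345 and 478 CPM in dissociated libraries, and fell by 1.29 (SE 0.14, adjusted p = 0.00018).
Upk1a was at 1403, 1273 and 1414 CPM in intact and 620, 505 and 767 CPM in dissociated libraries, and fell by 1.0 (SE 0.16, adjusted p = 0.0013). Upk3a was at 764, 691 and 701 CPM in intact and 354, 272 and 407 CPM in dissociated libraries, and fell by 0.95 (SE 0.16, adjusted p = 0.0014). Upk3b was at 292, 265 and 322 CPM in intact and 162, 164 and 138 CPM in dissociated libraries, and fell by 0.82 (SE 0.10, adjusted p = 0.00039). For each of these genes the lowest intact library was above the highest dissociated one, but the share of all genes separated in this way was not counted. Upk3bl, near 1.54 ± 0.379 (SD, n = 3) CPM in intact tissue, was not called (0.41, SE 0.28, edgeR adjusted p = 0.235).

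The bulk test called 59.2% of 16538 genes, 27.9% higher and 31.3% lower, so a call by itself is common here. The median of the 5 uroplakins was -1.0, against -0.03 over all genes (-0.14 with library size alone). In bulk samples, fewer cells of a type and less RNA per cell cannot be told apart. Of the 12 other urothelial markers, 6 were called higher and 3 lower (median 0.51). Their sum was 19.4 to 21.4 reads per 10,000 in intact and 26.9 to 44.9 in dissociated libraries. The 9 basal genes had 4 called higher and 1 lower. Markers of other cells moved as well: 12 of 12 fibroblast markers were called higher, and 11 of 12 muscle or mural markers lower, with sums of 459 to 478 in intact and 27.9 to 39.8 in dissociated libraries. Of 8 mesothelial markers measured 1 was called higher and none lower, with sums of 1.38 to 1.79 and 1.04 to 2.23, and no marker of these lists was at 0 throughout. The part of these lists in the uroplakin result was not tested. In the plaque transport list Snx31 (-1.54) and Rab27b (-0.70) were lower with 1 other gene, Mal was higher (0.60, not called with library size alone), and 4 were not called, Krt20 (-0.64) among them. Of the 9 transcription factors 3 were higher (Elf3 1.28, Klf5 0.96, Grhl3 0.75) and 4 lower (Rxra -0.80).

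**Figure D4:**
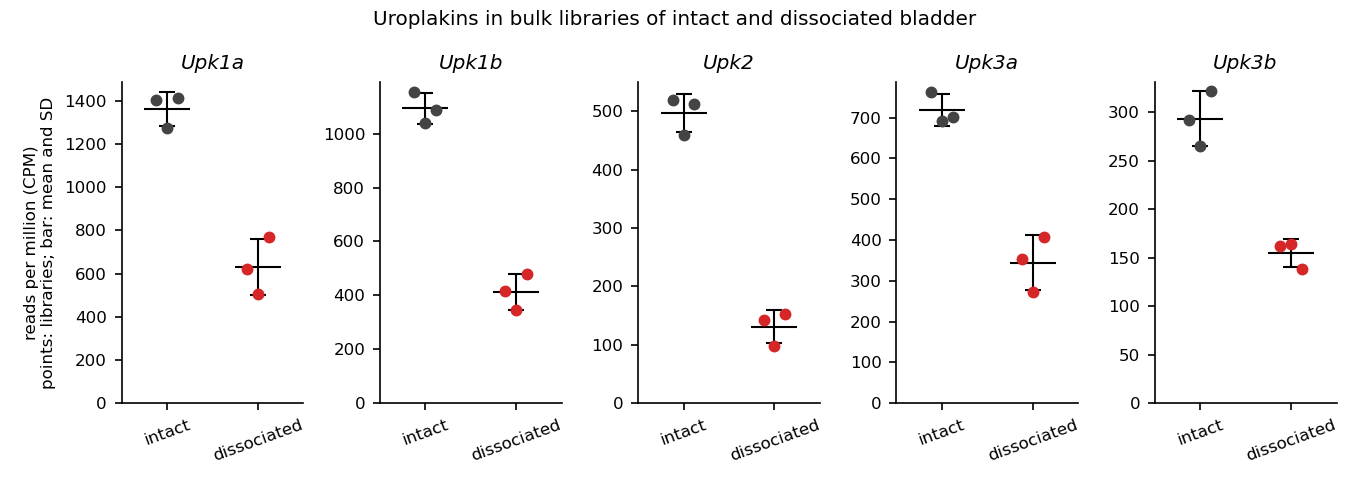
CPM of each uroplakin in 3 bulk libraries of intact and 3 of dissociated bladder. Points are libraries and bars give the mean and SD. For Upk2 the intact libraries lie between 459 and 519 CPM and the dissociated ones between 98.8 and 153 CPM.

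Visium spots placed the uroplakins over urothelium, with Upk3b also in spots with mesothelial markers. A spot covers several cells. The urothelial gate took 503 of 1317, 467 of 1038, 328 of 937 and 378 of 1123 spots in the 22-month (first, second) and 14-month (first, second) sections, at median depths of 26807 to 38160 UMIs. Sections share 247 to 533 spot barcodes pairwise, which mark positions of the array. Upk1b, the member with the largest log2 difference in the test below, was at 17.4, 17.6, 14.0 and 13.1 UMIs per 10,000 in gated spots. It was at 4.12, 4.40, 3.01 and 2.16 in spots with neither the gate nor 3 mesothelial markers. Upk3a was at 26.8, 30.6, 27.7 and 29.3 against 14.2, 13.9, 11.1 and 9.98, a smaller ratio of gated to remaining spots than for Upk1b in each section.
Upk3b was at 2.95, 3.26, 2.82 and 2.47 in gated spots, 4.81, 2.98, 2.69 and 3.70 in other spots with 3 or more mesothelial markers, and 1.21, 1.19, 0.882 and 0.682 in the remaining spots. Mesothelial-marker spots were thus above the remaining spots in 4 of 4 sections, and above gated spots in the first 22-month and second 14-month sections. Upk3a in mesothelial-marker spots was at 7.72, 8.43, 6.00 and 5.98, below the remaining spots in each section. These spots made up 5.01% to 9.97% of a section and were chosen by marker number, so no test is given.

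Between gated and all other spots, with section as a block, edgeR called all 5 uroplakins higher in 4 of 4 sections. The log2 differences were 2.13 (SE 0.10) for Upk1b, 1.71 (SE 0.11) for Upk2, 1.60 (SE 0.10) for Upk1a, 1.21 (SE 0.11) for Upk3a and 1.03 (SE 0.09) for Upk3b, each with an adjusted p of 1.1e-06 or below. The test called 72% of 14652 genes (36.3% higher, 35.7% lower); the median of the uroplakins was 1.60, against 0.03 over all genes. The plaque transport list had 7 of 8 genes higher (median 2.26) and all 9 transcription factors were higher (median 2.16), some of them gate genes. Over spots, as a description with shared depth, Pearson correlations among Upk1a, Upk1b, Upk2 and Upk3a were 0.67 to 0.86 and those with Upk3b 0.26 to 0.59.

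**Figure D5:**
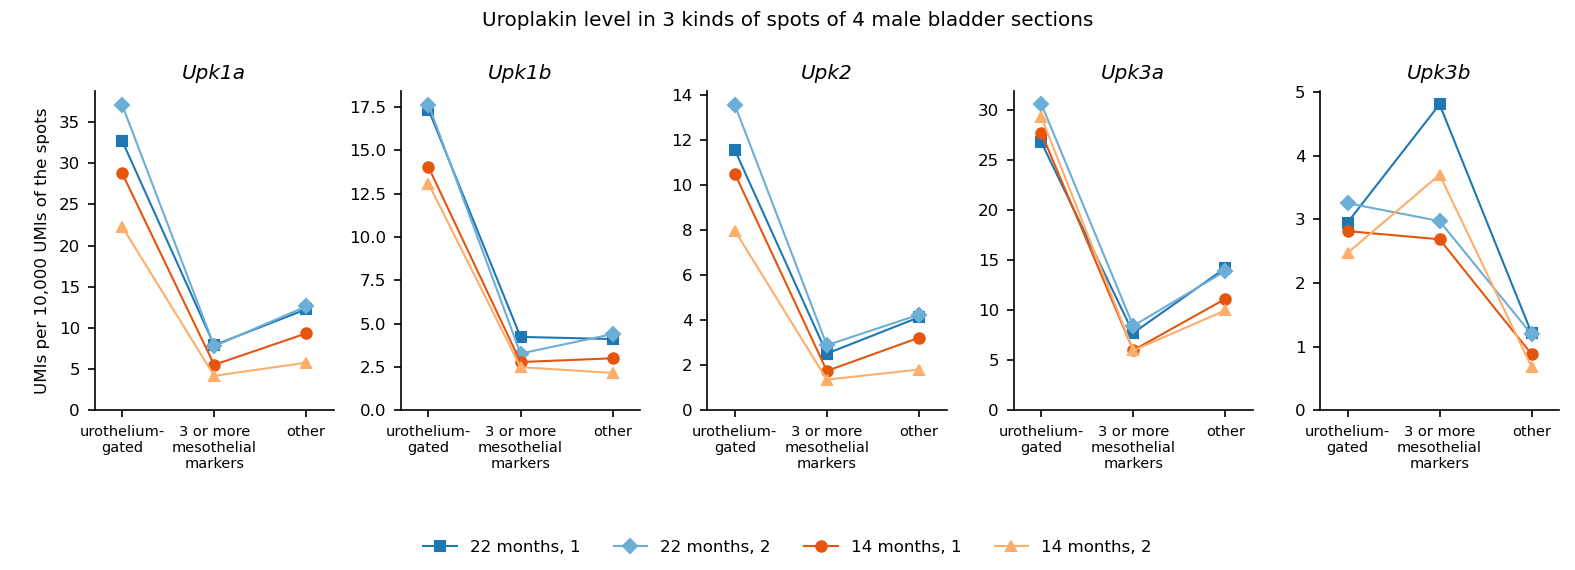
Level of each uroplakin, as UMIs per 10,000 UMIs, in urothelium-gated spots, other spots with 3 or more mesothelial markers and the remaining spots (horizontal axis). Each line is a section. Upk3b in mesothelial-marker spots is at 2.69 to 4.81, while Upk1a, Upk2 and Upk3a are lowest there in all 4 sections.

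Sections of 22 months were compared with those of 14 months over all spots. Upk1a was at 26.9 and 29.7 UMIs per 10,000 in 22-month and 22.0 and 16.1 in 14-month sections, Upk1b at 13.5 and 13.6 against 10.2 and 8.999, and Upk2 at 9.40 and 10.7 against 7.94 and 5.65. Upk3a was at 23.3 and 25.7 against 21.9 and 22.0, and Upk3b at 2.61 and 2.73 against 2.25 and 2.00. Both 22-month sections were above both 14-month sections for each uroplakin, but the share of all genes separated in this way was not counted. Of 14995 genes edgeR called none (0%), although 2488 had an unadjusted edgeR p under 0.05, and DESeq2 called 420. The log2 differences were 0.63 (SE 0.20, 95% interval 0.15 to 1.12) for Upk1a, 0.56 (SE 0.13, 0.25 to 0.88) for Upk1b, 0.63 (SE 0.21, 0.12 to 1.15) for Upk2, 0.22 (SE 0.14, -0.11 to 0.55) for Upk3a and 0.40 (SE 0.11, 0.13 to 0.66) for Upk3b, with adjusted p of 0.219, 0.155, 0.246, 0.448 and 0.196. DESeq2 called Upk1a (adjusted p = 0.0260), Upk1b (0.0011) and Upk2 (0.0442). The summed 12 urothelial markers went the other way, 45.5 and 46.3 in 22-month sections against 57.1 to 59.0 in 14-month ones, as did the 9 basal genes (17.7 and 17.8 against 25.0 to 29.1). The part of section makeup was not tested.

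Urothelial-gated cells of 22 and 24 months did not differ detectably from those of 3 and 12 months in any uroplakin. With sex mix as a term, edgeR called none of 12824 genes (0%; 359 had an unadjusted p under 0.05, DESeq2 called 4). The log2 differences were -0.38 (95% interval -0.81 to 0.05) for Upk1a, -0.19 (-0.67 to 0.28) for Upk1b, 0.12 (-0.63 to 0.86) for Upk2, -0.09 (-0.58 to 0.41) for Upk3a and -0.18 (-0.63 to 0.26) for Upk3b, each with an adjusted p of 0.9999. Within the male pair, 22 over 3 months gave -0.37, 0.072, 0.77, 0.16 and 0.039 in that order, and within the mixed libraries 24 over 12 months gave -0.45, -0.45, -0.45, -0.34 and -0.40. Upk1a was lower at the greater age in both; the other 4 had opposite signs. Without the 24-month library the sign turned for Upk1b (0.18), Upk3a (0.27) and Upk3b (0.15), and without either male library for Upk2 (-0.48). The summed fibroblast list in these urothelial sums was 2.77 to 41.0 at the greater ages and 0.895 to 15.0 at the lesser ones, and its part was not tested.

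In urothelial-gated nuclei, Upk1a and Upk3a took a smaller share of UMIs than in cells of every whole-bladder library. Upk1a was at 7.09 UMIs per 10,000 of the genes compared, against 33.4, 43.0, 19.8, 21.3 and 15.0 in the whole-bladder cell libraries, and Upk3a at 12.5 against 33.3, 29.8, 32.3, 30.8 and 24.9. Upk1b, at 7.0, lay inside the range of cells (5.31 to 8.14), and Upk3b, at 1.81, lay above it (1.13 to 1.68).
The fitted differences depend on scaling, since TMM gave the nuclei library a factor of 1.99 against 0.715 to 1.18 for cells, and library size alone moves the median over all genes from -0.09 to 1.08. With TMM, edgeR gave -3.01 for Upk1a (SE 0.46, adjusted p = 0.0044), -2.49 for Upk3a (SE 0.48, adjusted p = 0.0094), -1.23 for Upk1b (SE 0.38, adjusted p = 0.0459), -2.18 for Upk2 (adjusted p = 0.0902) and -0.86 for Upk3b (adjusted p = 0.131). With library size alone Upk3a stayed lower (-1.28, adjusted p = 0.0281), Upk1a (-1.90, adjusted p = 0.0648) and Upk1b (-0.028, adjusted p = 0.958) were not called, and Upk3b turned to 0.36 (adjusted p = 0.388). Upk1b was also not called without the 22-month male (adjusted p = 0.0776), either 12-month (0.0966 and 0.0533) or the 24-month library (0.0775). Upk2 was called without the 3-month male library (-2.38, adjusted p = 0.0255) and with DESeq2 (-2.14, adjusted p = 0.0097). Against the 12-month cells only, Upk2 was at -2.69 and Upk3b at -1.15, a setting whose spread rests on 2 cell libraries, so no call is read from it.
The test called 33.4% of 13429 genes (14.6% higher, 18.8% lower) with TMM, where 43.7% of the called genes were higher, against 89.5% with library size alone. There is 1 nuclei library, assumed to vary like the cell libraries. The p-values therefore rest on spread among the cell libraries alone, which differ in age, sex mix and depth. Muscle or mural markers summed to 40.2 UMIs per 10,000 in the urothelial-gated nuclei and 0.577 to 2.73 in the cells, with 8 of 11 called higher and none at 0 in the nuclei. The 12 urothelial markers summed to 58.0 against 111 to 158, and their part was not tested. In the plaque transport list Rab11a was at -3.07 and Rab8a at -1.55 with TMM, and Rab8a at -0.44 with library size alone. Among the 9 transcription factors Elf3, itself a gate marker, was at -3.11 and Trp63, a basal gene, at 1.05 with TMM.

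Genes with the pattern most like each member were ranked over 23 sums of 7 classes and 5 whole-bladder libraries, by Pearson correlation of log2(CPM + 1) over 13062 genes. The nearest were Igfbp2 (0.98), Ly6d (0.97, a gate marker) and Krt15 (0.97) for Upk1a, Krt19 (0.96), Mpzl2 (0.93) and Sytl1 (0.93) for Upk1b, and Lypd3 (0.97), Krt23 (0.94) and Pvrl1 (0.94) for Upk2. For Upk3a they were Sprr1a (0.98), Fmo5 (0.97) and Sptssb (0.97), and for Upk3b Cxadr (0.94), Pard6b (0.92) and Myo5b (0.92). Among the members themselves, Upk3a was most like Upk1a (0.92) and least like Upk3b (0.37), while Upk1b was most like Upk3b (0.88). Sums of one library share its depth and background, so these values carry no p.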

How the data were processed

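Raw counts per gene were deposited: UMI counts per barcode or spot for 12 droplet and spatial libraries, and whole-read counts for 6 bulk libraries, all whole numbers in the files. The submitters' processing notes name Cell Ranger, Space Ranger, bcl2fastq, Subread, featureCounts and the build mm10, with no version. The bulk libraries, per the labels, were poly(A)-selected and held 23083752 to 68760791 reads. The bulk table has 0 rows that name no gene.

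Barcodes under 500 UMIs or above 20% mitochondrial counts were removed; the male tables hold 0 mitochondrial counts, so that limit removed none of theirs. A marker was on at 0.5 times its library mean or more, and a class needed 3 markers on and 1.5 times the share of any other class. Mixed barcodes were left out and no doublet caller was run in the main analysis. Spots passed the urothelial gate with at least 0.5 of its markers on. In spots a urothelial or mesothelial marker was on at its section mean or more. Mitochondrial genes were dropped and genes common to the tables compared were used.

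Sums per class and library, spots per section and bulk libraries were tested with the quasi-likelihood test of edgeR 4.0.16 in R 4.3.3 (robust, TMM, filterByExpr, two-sided), adjusted by Benjamini-Hochberg over all genes tested at 0.05, with DESeq2 1.42.0 as an alternative. Standard errors (SE) were taken from the F statistic, as the size of the log2 change over the root of F. The fits were run on simulated counts with the same spread for every gene and no library effects. That check does not cover library effects or spread that differs between genes. Thinning drew 1000 UMIs a cell and left out shallower cells. Intervals of shares are exact binomial at 95% and a count of 0 is given as a limit of 3 counts; both cover counting error only.

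Members, marker lists and tests were chosen with earlier results of these data known. Named genes were the 5 members in every comparison, Upk3bl, up to 4 genes with the largest change in the plaque transport and transcription factor lists, and the 3 most alike genes. Alternatives were RLE scaling, library size alone, DESeq2, no filter, each library left out, other gates, Leiden clusters, doublets removed, thinning and the replicate number as a block. The labels do not say whether the replicate numbers of the bulk libraries pair them.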

Additional observations from a re-analysis of the deposited data

Results flagged for a closer look

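For 4 uroplakins the difference between greater and lesser age in urothelial-gated cells had opposite signs in the male and the mixed libraries. For Upk1b it was 0.072 on the log2 scale for 22 over 3 months in the male libraries and -0.45 for 24 months over the mean of the 12-month libraries in the mixed ones. For Upk2 it was 0.77 and -0.45, for Upk3a 0.16 and -0.34, and for Upk3b 0.039 and -0.40. The difference between the 2 contrasts was tested as an interaction in edgeR, over the same 5 libraries, and did not pass for any of them (adjusted p = 0.855 for Upk1b, 0.158 for Upk2, 0.730 for Upk3a and 0.951 for Upk3b). Its size was largest for Upk2, at -1.36 (SE 0.28, mixed minus male, unadjusted p = 0.00034). Each male age is 1 library, the ages differ between the contrasts, and the spread in this fit comes from the 2 libraries of 12 months. Sex mix, depth and table version cannot be told apart.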

How the results depend on the processing

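Under settings other than leaving out a library, 260 log2 differences of the uroplakins kept their direction and their side of the threshold, 5 turned, 8 newly passed (2 of them, for nuclei against 12-month cells, on a spread from 2 libraries) and 2 no longer passed. With a library left out, 164 kept both, 8 turned, 3 newly passed and 5 no longer passed. In bulk, tertiles and gated spots all 5 uroplakins kept both throughout. Deviations from the group mean correlated at 0.27, 0.39 and 0.028 between same-numbered bulk libraries, and at -0.49 to 0.22 between other pairs. The replicate number as a block in bulk gave -1.02, -1.31, -1.83, -0.97 and -0.82 for Upk1a, Upk1b, Upk2, Upk3a and Upk3b. With this block 10118 genes were called, against 9798, and no uroplakin call changed.

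Called genes numbered 2661 for tertiles (1385 with DESeq2, 1211 to 3265 with a library left out), 4285 for mesothelial against urothelial cells (2590 to 3957 with a library left out), 0 for age (DESeq2 4, no filter 86, 1 to 94 with a library left out) and 0 for section age (DESeq2 420, library size alone 38, no filter 287, 0 to 300 with a section left out). The causes were not tested.

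Between mesothelial and fibroblast cells Upk1b passed with DESeq2 (6.10) and Leiden clusters (5.82) and ranged from 5.06 to 6.78 with a library left out, Upk3b from 8.49 to 9.51, Upk2 from -0.14 to 0.64 and Upk3a from -0.67 to -0.15, turning with DESeq2 (0.11) and Leiden clusters (0.078). Against urothelial cells Upk1b turned with library size alone (0.44) and ranged from -0.29 to 0.075 with a library left out. In nuclei, library size alone ended the calls of Upk1a (-1.90) and Upk1b (-0.028) and turned Upk3b (0.36), while Upk2 passed with DESeq2 (-2.14). Against 12-month cells only, where the spread rests on 2 libraries and no call is read, Upk2 was at -2.69 and Upk3b at -1.15. With a library left out Upk1b ranged from -1.29 to -1.11 and Upk2 from -2.38 to -1.97. For age, with a library left out, Upk2 ranged from -0.48 to 0.88 (-0.36 with no sex term), Upk1b from -0.49 to 0.18, Upk3a from -0.36 to 0.27 and Upk3b from -0.43 to 0.15. In sections DESeq2 called Upk1a (0.63), Upk1b (0.56) and Upk2 (0.63). Library size alone was added after seeing the data.

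Shares of urothelial-gated cells with a UMI moved with depth: means over the 5 whole-bladder libraries of 97.5%, 89.0%, 75.7%, 90.8% and 57.2% for Upk1a, Upk1b, Upk2, Upk3a and Upk3b became 79.1%, 41.8%, 31.0%, 72.2% and 11.6% at 1000 UMIs a cell and 60.3%, 25.5%, 17.96%, 56.2% and 5.99% at 500.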
